A study of Mus musculus with 2 samples.

Results

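The type II and XI collagen genes Col2a1, Col11a1 and Col11a2 were followed in single cells of limb tendons at P7. The 3 genes were taken by symbol from the 27998 genes of the count table. Single-cell RNA sequencing (10x Genomics, 3′ ends) counts each captured mRNA once by a unique molecular identifier (UMI), so a level does not scale with transcript length. There was 1 wild-type and 1 mutant library, and tendons of forelimbs and hindlimbs from 2 pups were pooled for each. Mutant pups carried a floxed Tgfbr2, the type II TGFβ receptor, and ScxCre, a Cre driven by Scx regulatory sequences. The study writes their Tgfbr2 genotype as f/-, a floxed allele beside a null allele. Pups of both groups also carried the tendon reporter ScxGFP and the Cre reporter Ai14 Rosa26-tdTomato. The control sample is wild-type in its title and genotype label, but its description calls it Het, and the name wild-type is used below.

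Cells were split by Scx, the tendon transcription factor that marks tenocytes, at 30 UMIs per 10,000 UMIs of the cell. By the study's own notes, Scx counts hold ScxGFP transcripts as well, so the class rests on the gene and the transgene together. In mutant tendons of this age, the study reports, most cells had lost the ScxGFP signal. It proposes that the cells showing the signal were newly recruited. Mutant Scx-high cells may therefore not be the counterpart of wild-type Scx-high cells. From lineage tracing, the study concludes that cells without the signal inside mutant tendons came from tenocytes. The remaining cells, called other cells below, may thus include former tenocytes in the mutant library and be no counterpart of wild-type other cells. Of 2364 wild-type cells, 1178 (49.8%) were Scx-high, against 235 of 2592 mutant cells (9.07%). Median depth was 4286 UMIs in wild-type and 4251 in mutant Scx-high cells, and 3536 and 2761 in other cells. The libraries held 9451606 and 8250248 UMIs, and 2 cell barcodes occurred in both. Tgfbr2 itself had 30.9 UMIs per 1000000 UMIs (CPM) in wild-type and 45.2 in mutant Scx-high cells, a 3′ count that does not report the loss of an upstream exon and so does not check the labels. All 9 tendon markers had UMIs in Scx-high cells of both libraries. Since each condition has 1 library, replicate spread is unknown: no test was run, batch and condition cannot be told apart, and every interval is an exact 95% interval for counting error only. Where 0 cells held a UMI, the limit given is instead the share that 3 counts would make.

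Type II collagen, a homotrimer of the Col2a1 product, is the main fibrillar collagen of cartilage. Type XI collagen is a thin-fibril collagen built from the Col11a1 and Col11a2 products together with an overmodified Col2a1 product, and it is known to sit inside the fibril and limit its width. In tendon, type XI and the closely related type V collagen (Col5a1, Col5a2) are minor partners of type I collagen (Col1a1, Col1a2).

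On GRCm38 (GENCODE M21), Col2a1 (ENSMUSG00000022483) lies on chr15:97975602-98004695 on the minus strand. Col11a1 (ENSMUSG00000027966) lies on chr3:114030540-114220718 and Col11a2 (ENSMUSG00000024330) on chr17:34039437-34066685, both on the plus strand. The 250 bases before the RefSeq start (GRCm38.p6) of the type XI genes are shown because their levels differed between the libraries by unlike factors, as given further down. They cover chr3:114030290-114030539 for Col11a1 and chr17:34038888-34039137 for Col11a2, plus strand. The Col11a1 window ends next to the gene start given above. The Col11a2 window ends upstream of the gene start given above, since its RefSeq start differs from the GENCODE start. Distances below are from the RefSeq start. Capitals mark matches to the E-box CANNTG, the letters bound by Scx-type factors, and to TATAAA, searched on both strands.
Col11a1: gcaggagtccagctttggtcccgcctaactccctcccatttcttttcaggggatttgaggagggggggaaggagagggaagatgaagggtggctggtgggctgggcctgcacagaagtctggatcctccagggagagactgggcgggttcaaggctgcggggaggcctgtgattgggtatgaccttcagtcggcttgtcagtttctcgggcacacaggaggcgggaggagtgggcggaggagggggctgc
Col11a2: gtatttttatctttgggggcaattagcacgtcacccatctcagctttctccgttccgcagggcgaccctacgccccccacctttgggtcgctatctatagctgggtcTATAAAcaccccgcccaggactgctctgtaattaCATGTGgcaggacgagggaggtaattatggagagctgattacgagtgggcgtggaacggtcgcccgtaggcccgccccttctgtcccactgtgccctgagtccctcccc
Col11a2 had 1 E-box, starting 109 bases before the start, and 1 TATAAA, 143 bases before it, while the Col11a1 window held neither. An E-box occurred in 66.2% and TATAAA in 12.4% of the 32851 RefSeq promoter windows of the same length. The Sox-type letters ACAAAG were in neither window and in 16.5% of all windows. These are matches of letters, not binding sites. No such window was available for Col2a1, so its letters were not compared.

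Each of the 3 chains was detected in most wild-type Scx-high cells. Col2a1 was detected in 1044 of 1178 cells (88.6%, interval 86.7 to 90.4), Col11a1 in 91.0% (89.2 to 92.6) and Col11a2 in 91.9% (90.2 to 93.4). Col11a2 was the most abundant, with 9178 UMIs, or 1867 CPM, against 861 CPM for Col2a1 and 932 CPM for Col11a1, values that can also differ with capture of each 3′ end. The median cell had 7.99 Col2a1, 8.69 Col11a1 and 17.3 Col11a2 UMIs per 10,000, and 27.6% of cells held over 10 Col11a2 UMIs. Few cells were empty: 11.4% had no Col2a1, 9.0% no Col11a1 and 8.06% no Col11a2.

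In mutant Scx-high cells the chains were detected in lower shares of cells and in another order. Col2a1 had 124 UMIs (114 CPM) and was detected in 70 of 235 cells (29.8%, interval 24.0 to 36.1). Col11a2 had 254 UMIs (235 CPM) in 36.6% of cells (30.4 to 43.1). Col11a1 was the most abundant chain here, with 409 UMIs (378 CPM) in 60.4% of cells (53.9 to 66.7). The median cell held 0 Col2a1 and 0 Col11a2 UMIs and 2.22 Col11a1 UMIs per 10,000. The highest single cell reached 17.4 Col2a1, 21.8 Col11a1 and 26.1 Col11a2 UMIs per 10,000, against 71.9, 68.5 and 132 in the wild-type library. Thinned to 1500 UMIs each, 69.2% of wild-type and 16.2% of mutant cells kept a Col2a1 UMI, 72.1% and 36.6% a Col11a1 UMI, and 83.2% and 25.5% a Col11a2 UMI.

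**Figure D1:**
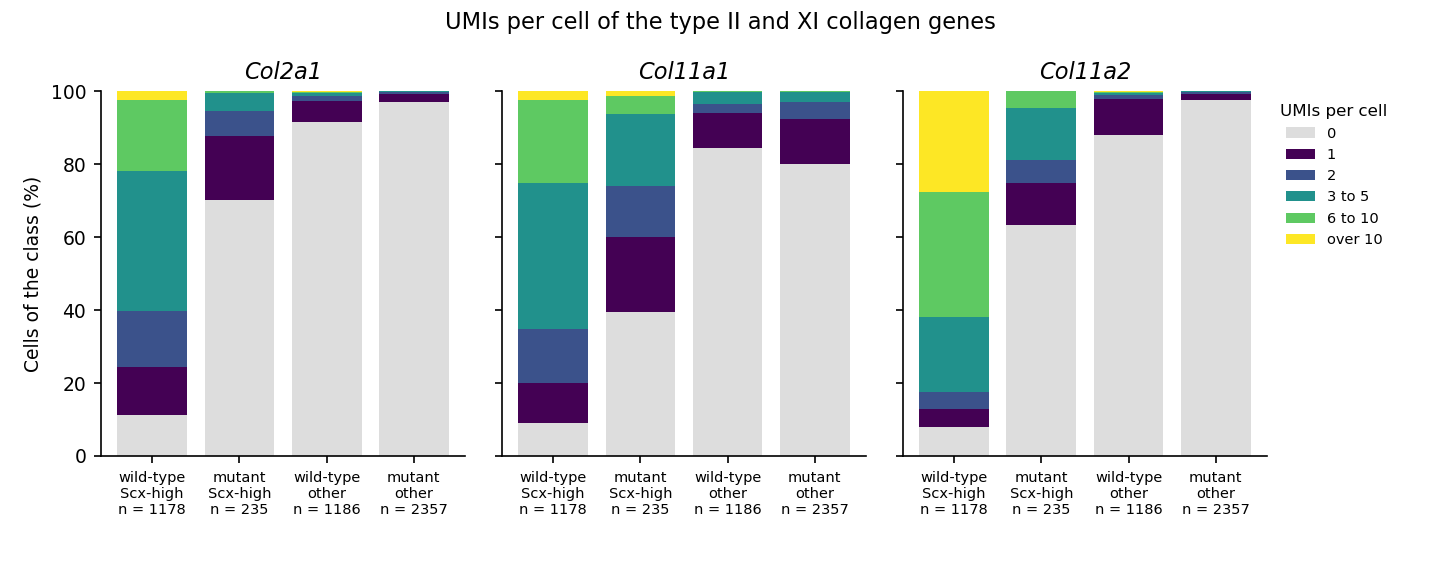
Share of cells (%) by the number of UMIs they held of each chain, for Scx-high and other cells of the wild-type and mutant library. Cells with 0 UMIs (grey) made up 11.4% of wild-type and 70.2% of mutant Scx-high cells for Col2a1, and 9.0% and 39.6% for Col11a1.

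The UMIs were spread over the wild-type Scx-high cells rather than held by a few. The 10% of cells highest per 10,000 UMIs held 18.7% of the Col2a1, 17.1% of the Col11a1 and 18.0% of the Col11a2 UMIs. With cells ranked by their UMIs instead, the shares were higher, as given in the last section. Thinned to 1500 UMIs per cell, which also lowers the means, the shares were 30.04%, 29.9% and 29.95%. Type I collagen, with a mean of 305 Col1a1 UMIs per cell, had shares of 11.2% for Col1a1 and 13.6% for Col1a2 before thinning. The tendon genes Fmod (13.3%), Tnmd (19.6%) and Scx (22.8%) lay on both sides of the chains. The median over the 3920 genes that averaged 0.1 UMI per cell or more was 58.2%, and 112 genes had a lower share than Col2a1, 72 than Col11a1 and 95 than Col11a2. After thinning to equal depth the variance over the mean was 1.31 for Col2a1, 1.27 for Col11a1 and 2.32 for Col11a2, where random counting alone gives 1.

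In mutant Scx-high cells the top 10% of cells held 55.6% of Col2a1, 43.3% of Col11a2 and 32.3% of Col11a1 UMIs. A share of this kind rises as the mean falls, and the means were 0.528, 1.08 and 1.74 UMIs per cell, against 3.59, 7.79 and 3.89 in the order Col2a1, Col11a2 and Col11a1 in wild-type cells. Comparison genes with higher means also had higher shares in the mutant library, with 16.2% for Col1a1, 24.5% for Fmod, 26.9% for Tnmd and 36.0% for Scx. The variance over the mean of the thinned counts was 1.58 for Col2a1, 1.77 for Col11a1 and 1.63 for Col11a2. It was thus above the wild-type value for Col2a1 and Col11a1 and below it for Col11a2. For counts that vary more than random counting, this value also rises with the mean. As the means differed, it does not show in which library a chain was more evenly spread.

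**Figure D2:**
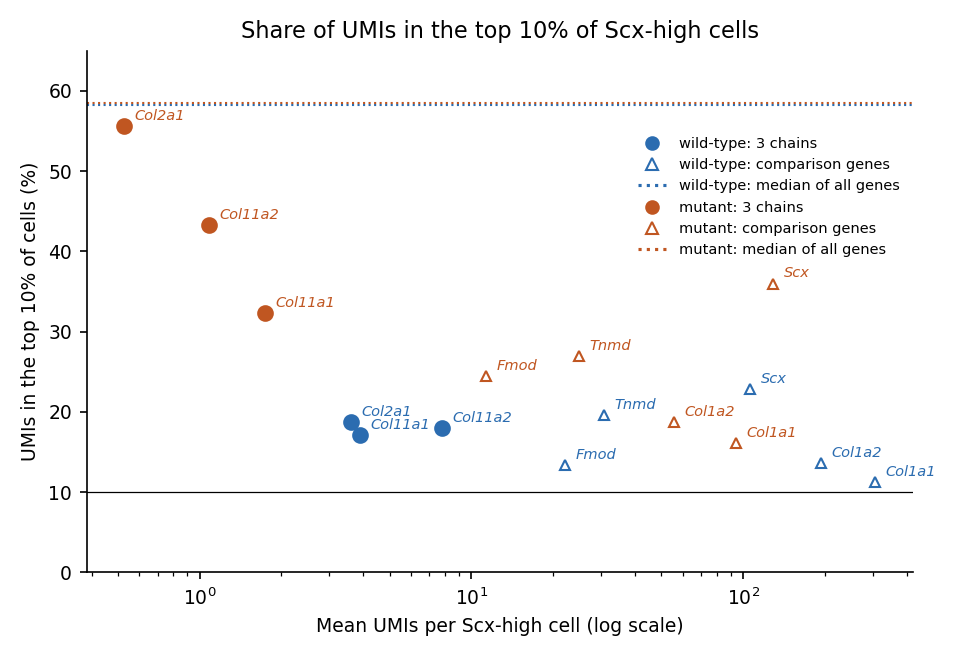
Share of a gene's UMIs (%) in the top 10% of Scx-high cells against its mean UMIs per cell (log axis). Filled circles are the 3 chains, triangles comparison genes and dotted lines the median of all genes. The solid line is at the 10% that cells with equal counts would give. Random counting alone raises a share above this line, more so at low means. Wild-type chains lay between 17.1% and 18.7%, and mutant chains at lower means between 32.3% and 55.6%.

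The 3 chains were mostly found together in wild-type Scx-high cells. All 3 were detected in 953 cells (80.9%, interval 78.5 to 83.1) and none in 25 (2.12%). In mutant Scx-high cells all 3 were detected in 42 cells (17.9%, 13.2 to 23.4), none in 72 (30.6%) and Col11a1 alone in 57 (24.3%, 18.9 to 30.2). Col11a1 alone was found in 2.80% of wild-type cells, while Col2a1 alone was rare in both libraries (1.02% and 1.70%). At 1500 UMIs per cell, all 3 were detected in 46.1% of wild-type and 5.56% of mutant cells.

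Col2a1 and Col11a2 were the most closely linked pair. In wild-type cells thinned to 1500 UMIs, Col11a2 was detected in 88.2% of cells with Col2a1 (85.7 to 90.4) and 71.9% of cells without it (66.8 to 76.7). In thinned mutant cells these shares were 60.0% of 35 cells (42.1 to 76.1) and 18.8% of 181 cells (13.4 to 25.2). For Col11a1, 75.2% of wild-type cells with Col2a1 and 65.1% of those without it were positive. In mutant cells the Col11a1 shares were 57.1% (39.4 to 73.7) and 32.6% (25.8 to 39.9). Each pair of intervals given here was separate except those of Col11a1 in mutant cells, which met between 39.4% and 39.9%.

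**Figure D3:**
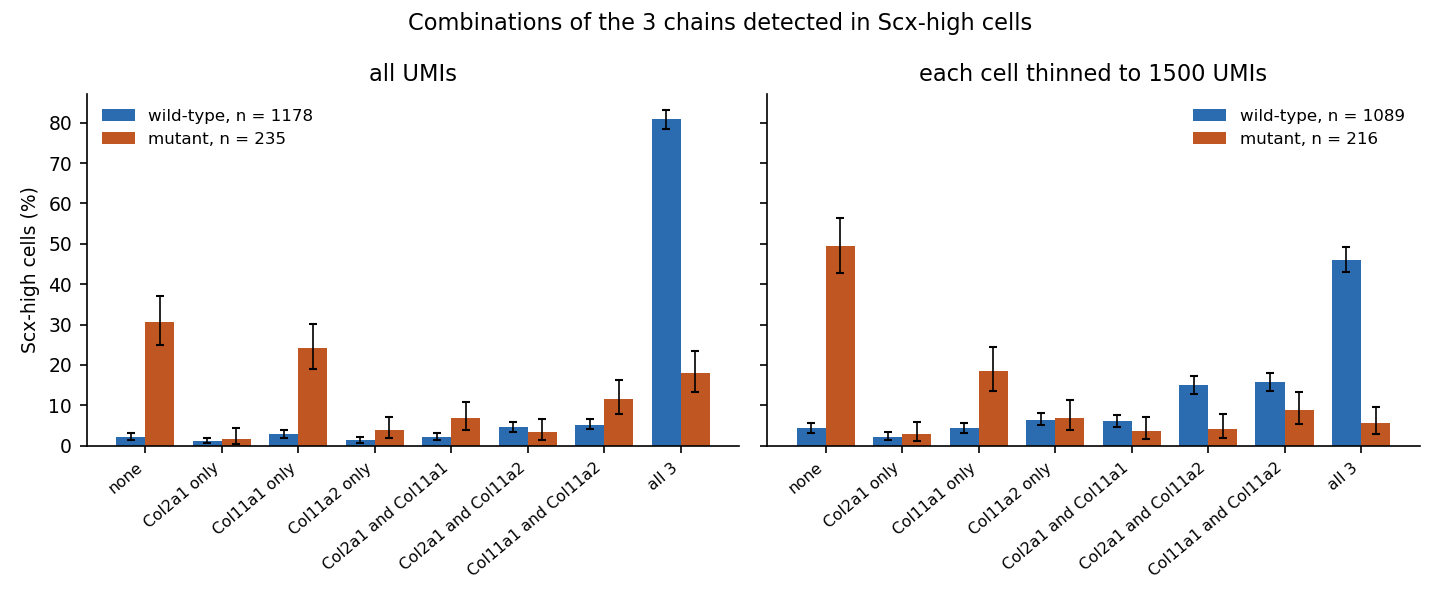
Share of Scx-high cells (%) in each combination of detected chains, with all UMIs (left) and after thinning each cell to 1500 UMIs (right), with exact 95% counting intervals as bars. The wild-type library peaked at all 3 chains (80.9% and 46.1%), and the mutant library at none (30.6% and 49.5%), followed by Col11a1 alone.

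Correlations over the 1178 wild-type Scx-high cells, of log2(1 + UMIs per 10,000) among 3624 genes detected in at least 10% of them, are given as a description. These cells share 1 library, and depth moves all such values. The gene most like Col2a1 was Col11a2 (Pearson r = 0.51), followed by Col1a1 (0.51), Col1a2 (0.49), Fmod (0.42) and 1500015O10Rik (0.32). Col11a2 was most like Col1a1 and Col1a2 (both 0.65), then Fmod (0.54), Col2a1 (0.51) and 1500015O10Rik (0.45). Col11a1 had lower values, with Col1a2 (0.40), Col1a1 (0.38), Fmod (0.32), Col11a2 (0.31) and Col2a1 (0.27) at the top.

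Tnmd, a membrane protein of mature tenocytes, was not among these: its r was -0.03 with Col2a1, 0.12 with Col11a1 and -0.07 with Col11a2. Col5a1, the type V counterpart of Col11a1, had r = -0.24 with Col2a1 and -0.37 with Col11a2. In the 235 mutant Scx-high cells Col2a1 and Col11a2 were each other's most similar gene (r = 0.50). There Tnmd ranked as number 2 of 4496 genes for Col11a1 (0.56) and number 5 for Col11a2 (0.42). At 30 to under 100 Scx UMIs per 10,000, Tnmd was detected in 73.3% of mutant and 97.9% of wild-type cells. At 300 or more the shares were 97.0% and 100%. The part of unlike cells within the mutant class in these correlations was not tested.

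The 118 wild-type Scx-high cells with the highest Col2a1 per 10,000 UMIs had lower depth than the remaining 1060 (median 2322 against 4440 UMIs). The Col2a1 level itself was used to pick them. They had 1.93-fold more Col11a2 per UMI (interval 1.82 to 2.06) and 1.35-fold more Col11a1. Higher as well were Cilp2 (1.64-fold), a cartilage intermediate layer protein, Col14a1 (1.56), a fibril-surface collagen, Acan (1.51), the cartilage proteoglycan aggrecan, Col1a1 (1.38) and Matn4 (1.38), a matrilin. Lower were Lum (0.27), Col5a1 (0.38), Tnmd (0.84) and Scx (0.91), and also the cartilage genes Cilp (0.34) and Ucma (0.68). Of the 9 tendon markers, 1 had an interval above 1 and 3 below it, and the median ratio was 0.913. Of 11 cartilage and fibrocartilage matrix genes with enough UMIs, 6 had intervals above 1 and 2 below it, and the median ratio was 1.19. Cartilage matrix genes therefore lay on both sides in these cells. Of 20 genes for collagen folding, processing and fibril partners, 6 had intervals above 1 and 1 below it. The 2 chondrocyte markers with enough UMIs split, 1 above and 1 below. The share over all genes was not computed, so a lean particular to cartilage genes is not shown.

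Of 12 chondrocyte markers, 9 had UMIs in Scx-high cells of each library, and their summed level was 457 CPM in wild-type and 438 CPM in mutant cells. Matn1, Col10a1 and Snorc had 0 UMIs in both. The type IX collagen genes had 6 (Col9a1), 87 (Col9a2) and 9 (Col9a3) UMIs over the wild-type cells, and Sox9, the activator of cartilage collagen genes, had 59 UMIs there (12.0 CPM) and 12 in mutant cells (11.1 CPM). Matn3 (117 UMIs), Hapln1 (113), Cnmd (36) and Ihh (2) were likewise low over the wild-type cells. Acan, at 247 CPM in wild-type and 373 CPM in mutant Scx-high cells, and Ucma, at 134 and 12.9 CPM, were the most abundant of the 12 chondrocyte markers in the wild-type cells.

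Between the libraries, all 3 chains were lower in mutant Scx-high cells. The mutant over wild-type ratio of UMIs per total was 0.133 for Col2a1 (interval 0.110 to 0.159), 0.126 for Col11a2 (0.110 to 0.142) and 0.405 for Col11a1 (0.365 to 0.448). These are 7.52-fold, 7.96-fold and 2.47-fold lower levels. Among the 5127 genes that averaged 0.1 UMI per cell or more in either library, 4.25% were at least 2-fold lower, and the chains ranked number 26, 24 and 133 from the lowest ratio in the order Col2a1, Col11a2 and Col11a1. The median ratio of all genes was 1.29, and relative to it the ratios were 0.103 for Col2a1, 0.0972 for Col11a2 and 0.314 for Col11a1.

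Markers of other cell types differed between the Scx-high cells of the libraries, some higher and some lower in the mutant library. There were 498 UMIs over the 6 skeletal muscle markers, all but Ckm above 0, against 30 in wild-type cells, where Myod1 and Pax7 were at 0. In 16 mutant and 2 wild-type Scx-high cells these markers summed to at least 3 UMIs. Those 16 cells held no Col2a1 or Col11a1 UMI, where 0 of 16 cells allows a share of up to 18.8%, and 2 Col11a2 UMIs. Without the muscle-marker cells of both libraries the ratios were 0.140 (Col2a1), 0.132 (Col11a2) and 0.428 (Col11a1), with 4.07% of 5160 genes at least 2-fold lower. Spp1, the osteopontin gene, also active outside bone, had 802 CPM in mutant and 5.09 CPM in wild-type Scx-high cells, with 4 of the 6 bone markers (Bglap, Bglap2, Ibsp and Sp7) at 0 in both. Over the 8 fibroblast or peritenon markers the summed level was 1058 CPM in mutant and 346 CPM in wild-type Scx-high cells, none of them at 0, although Dpp4 was lower (ratio 0.0753). The 6 pericyte or smooth muscle markers summed to 952 CPM in mutant and 425 CPM in wild-type cells, again with none at 0 and with Cspg4 lower (0.482). The 5 Schwann or neural markers summed to 42.5 CPM in mutant and 4.88 CPM in wild-type cells, with Cdh19 at 0 in both. Immune markers were lower in mutant cells (17.5 against 121 CPM, with Ptprc at 0), as were red blood cell markers (216 against 521 CPM, with Hbb-bh1 at 0 in both). With haemoglobin-rich and immune-marker cells left out, the ratios were 0.129 (Col2a1), 0.125 (Col11a2) and 0.405 (Col11a1). The part of the bone, fibroblast, pericyte and neural markers in the ratios was not tested.

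Against type I collagen, which was lower as well, the 3 chains split. Col1a1 had a ratio of 0.280 and Col1a2 of 0.261. Per 1000 Col1a1 UMIs, Col2a1 was at 11.8 in wild-type and 5.59 in mutant Scx-high cells, and Col11a2 at 25.5 and 11.5. Col11a1 was at 12.7 and 18.5 per 1000 Col1a1 UMIs, a ratio of 1.45 (interval 1.31 to 1.60). Relative to Col1a1, then, Col2a1 and Col11a2 were lower in the mutant library and Col11a1 was higher.

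The make-up of the 3 messages differed accordingly. In wild-type Scx-high cells, 51.0% of the 17994 UMIs of the 3 chains were Col11a2, 25.5% Col11a1 and 23.5% Col2a1. In mutant Scx-high cells, 52.0% of 787 UMIs were Col11a1 (interval 48.4 to 55.5), 32.3% Col11a2 and 15.8% Col2a1. Among other cells Col11a1 was the largest of the 3 in both libraries, with 46.6% of 723 UMIs in wild-type (42.9 to 50.3) and 80.7% of 964 UMIs in mutant cells (78.1 to 83.2).

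The type V genes went the other way. Of the 8 other fibrillar collagen genes, 7 had enough UMIs in Scx-high cells, of which 2 (Col1a1 and Col1a2) were at least 2-fold lower and 5 at least 2-fold higher in the mutant library, the median ratio being 7.22. Of all 5127 genes, 14% were at least 2-fold higher. The mean of 0.1 UMI could be met in either library. It was met by 5 of the 8 genes in wild-type and 7 in mutant Scx-high cells. Some of the genes counted as higher thus passed only in the library where they were high, and the median of 7.22 includes them. Col5a1 was at 54.1 CPM in wild-type and 805 CPM in mutant cells (ratio 14.9, interval 13.0 to 17.1), Col5a2 had a ratio of 4.0 and Col3a1, a chain of reticular and early fibrils, of 8.39. Col11a1 made up 94.5% of the joint Col11a1 and Col5a1 UMIs in wild-type Scx-high cells (93.8 to 95.1) and 31.9% in mutant ones (29.4 to 34.6). In other cells the same share was 15.9% in wild-type and 19.1% in mutant cells.

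**Figure D4:**
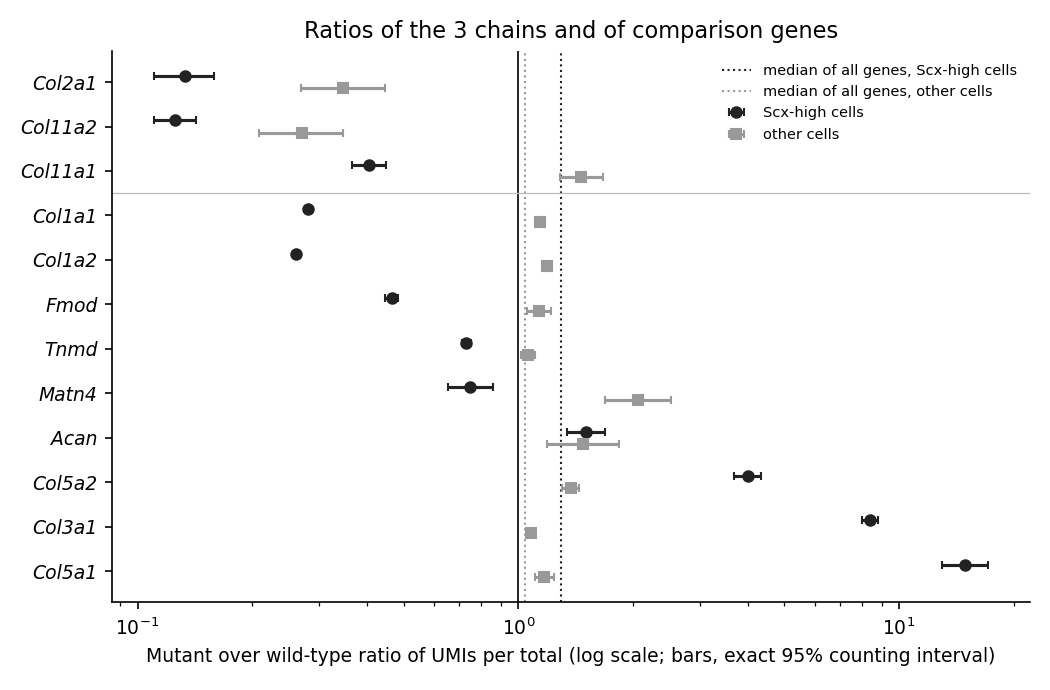
Mutant over wild-type ratio of UMIs per total (log axis) of the 3 chains (above the grey line) and comparison genes, with exact 95% counting intervals, in Scx-high (circles) and other cells (squares), with dotted lines at the median of all genes. In Scx-high cells Col2a1 (0.133) and Col11a2 (0.126) lay furthest left of the genes drawn and Col5a1 (14.9) furthest right.

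Of the cartilage and fibrocartilage matrix list, 13 of 22 genes had enough UMIs in Scx-high cells, 3 being at least 2-fold lower and 3 at least 2-fold higher, and the median ratio was 1.05 beside 1.29 over all genes. These are 3 of 13 genes in each direction, where 4.25% of all genes were lower and 14% higher. The mean of 0.1 UMI was met by 11 of the genes in wild-type and 12 in mutant cells. Some of the 13 thus passed in 1 library only, and the counts in each direction partly follow from this filter. Ucma (0.0961), Cilp2 (0.295) and Prg4 (0.472), the gene of lubricin, were lower. Cilp (16.8), Epyc (3.29) and Chad (2.17) were higher, and Acan had a ratio of 1.51. The list held both directions, unlike the 3 chains.

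Of 21 genes for collagen folding, processing and fibril partners, 9 were at least 2-fold lower and 2 at least 2-fold higher, and the median ratio was 0.771, read against the same shares of all genes. The lower ones included P4ha1 (0.157), a prolyl 4-hydroxylase subunit, Pcolce2 (0.192), an enhancer of procollagen cleavage, Crtap (0.325), part of the prolyl 3-hydroxylation complex, and Bmp1 (0.407), a procollagen C-proteinase. Plod2, a lysyl hydroxylase, was higher (5.92), as was P4ha2 (4.63). Of 15 listed regulators, 4 had enough UMIs: Creb3l1, a secretory pathway factor, was at 0.358 and the tendon factor Mkx at 0.569, while Scx, which set the cell class, was at 1.10 and Nfyb at 1.57. Of 3 collagen receptor genes measured, Ddr2 was at 0.439, Itgb1 at 1.26 and Itga11 at 3.18. The same mean in wild-type cells alone was met by 20 folding and processing genes, 3 regulators and 2 receptors. The remaining genes of these lists passed through the mutant library only.

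The lower level was present at each Scx level above the threshold. In cells with 300 or more Scx UMIs per 10,000, Col2a1 was at 887 CPM in wild-type and 95.6 CPM in mutant cells, Col11a2 at 1888 and 220 CPM, and Col11a1 at 911 and 305 CPM. In cells with 30 to under 100, Col2a1 was at 683 and 104 CPM, Col11a2 at 1378 and 202 CPM, and Col11a1 at 806 and 322 CPM. The fold difference across the 3 Scx ranges from 30 up was 6.02 to 9.28 for Col2a1, 6.83 to 8.56 for Col11a2 and 1.88 to 2.98 for Col11a1. In the wild-type library each chain was lowest, of these 3 ranges, at 30 to under 100 Scx UMIs.

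**Figure D5:**
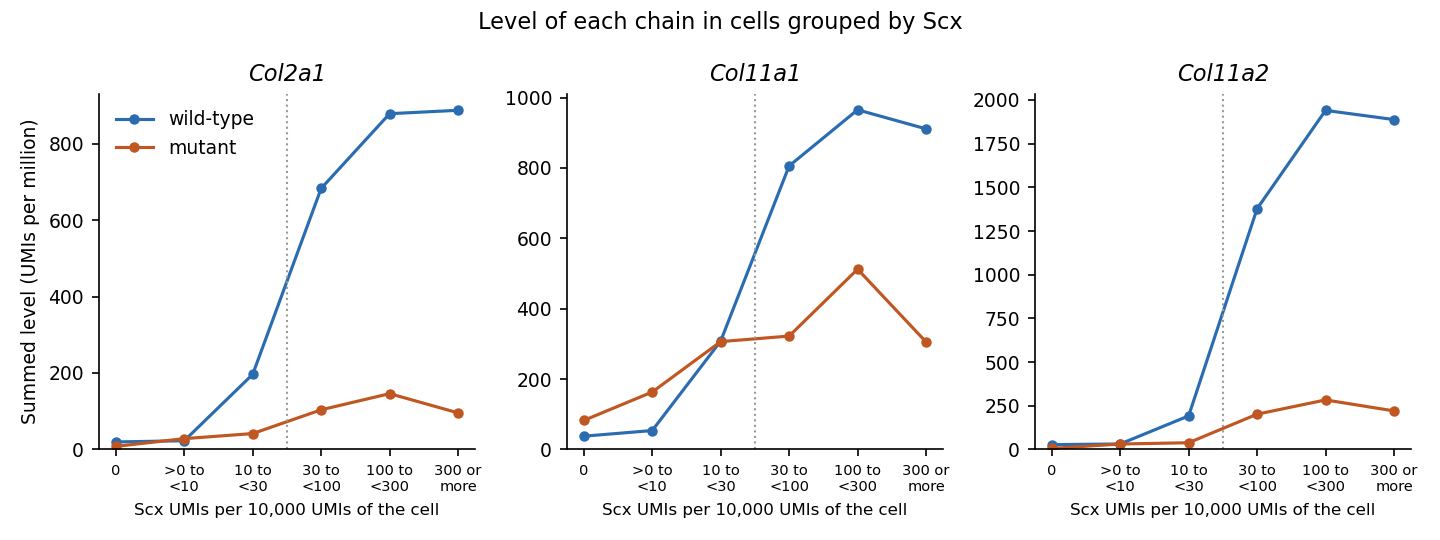
Summed level (CPM) of each chain in cells grouped by Scx UMIs per 10,000, with the Scx-high threshold dotted. Wild-type levels climbed across the threshold. Mutant levels rose there too, from 41.5 to 104 CPM for Col2a1 and from 38.3 to 202 CPM for Col11a2. In no range did they exceed 146 and 283 CPM. The Col11a1 lines met at 10 to under 30 Scx UMIs.

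Below the threshold Col11a1 parted from the other chains. At 10 to under 30 Scx UMIs per 10,000 it was at 308 CPM in wild-type and 306 CPM in mutant cells (ratio 0.995, interval 0.759 to 1.30), while Col2a1 had a ratio of 0.211 (0.108 to 0.380) and Col11a2 of 0.200 (0.0993 to 0.367). At over 0 to under 10, Col11a1 had a ratio of 3.04 (2.47 to 3.75), while the intervals of Col2a1 (1.24, 0.817 to 1.86) and Col11a2 (0.990, 0.676 to 1.43) held 1. In cells without Scx, Col11a1 was at 37.7 and 82.4 CPM, a ratio of 2.19 (1.62 to 3.01), and Col2a1 (0.406) and Col11a2 (0.216) were lower. Tnmd had ratios of 2.96 and 1.69 in these 2 ranges, and Col1a1 of 1.50 and 1.25. In wild-type cells without Scx, Col2a1 was at 19.6 CPM and Col11a2 at 27.5 CPM. Wild-type immune-marker cells outside the Scx-high class, which should lack the chains, held 8 Col2a1, 14 Col11a1 and 15 Col11a2 UMIs among 473425 UMIs. How far ratios at such levels reflect background UMIs was not tested. Over all other cells the Col11a1 ratio was 1.46 (1.28 to 1.67). It came from 337 UMIs in 15.7% of 1186 wild-type and 778 UMIs in 20.1% of 2357 mutant cells. Over all other cells Col2a1 (0.347) and Col11a2 (0.270) were lower, where 4.8% of 4644 genes were at least 2-fold lower and the median ratio was 1.04. Both met the mean of 0.1 UMI in the wild-type library only. They averaged 0.149 and 0.176 UMIs per cell there, and 0.0412 and 0.0378 in mutant other cells. Their place among the lower genes thus partly follows from this filter. With the Scx threshold at 100 the Col11a1 ratio of other cells was 0.810. Cells with 30 to under 100 Scx UMIs then joined the other cells of both libraries. They were 146 wild-type cells with Col11a1 at 806 CPM and 90 mutant cells with 322 CPM.

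The other cells of the libraries also differed in their markers. The 5 Schwann or neural markers summed to 7.27 CPM in wild-type and 1308 CPM in mutant other cells. The 6 pericyte or smooth muscle markers summed to 4406 and 946 CPM, none at 0 in either library, and the 6 red blood cell markers to 104492 and 46134 CPM, with Hbb-bh1 at 0 in wild-type cells. Leaving out cells with at least 3 UMIs of the Schwann or neural markers gave a Col11a1 ratio of 1.48 (1.30 to 1.69), and leaving out those with at least 3 UMIs of the pericyte or smooth muscle markers gave 1.36 (1.19 to 1.56). Without haemoglobin-rich and immune-marker cells it was 1.34 (1.17 to 1.53). These groups were left out 1 at a time, and the Col11a1 ratio was above 1 each time. Possible former tenocytes among the mutant other cells stayed in. The part of cell make-up in the ratio was not tested.

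These shares were set against cells that should lack the chains. Among wild-type cells with at least 3 immune-marker UMIs outside the Scx-high class (177 cells, median 2417 UMIs), 2.26% had Col2a1, 5.65% Col11a1 and 4.52% Col11a2. Among 200 such mutant cells (median 1704 UMIs), the shares were 1.0%, 3.5% and 0.5%. Cells with over 50% haemoglobin UMIs had 2.27%, 3.41% and 6.82% in the wild-type library (88 cells), and 1.27%, 0% (0 of 79 cells, which allows up to 3.8%) and 1.27% in the mutant library.

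After these cells were set aside, other cells were divided by Tnmd at 30 per 10,000, a division chosen after values were seen. Cells with Tnmd below it, 1922 in the mutant library (median 2805 UMIs), had Col11a1 in 19.2% (17.5 to 21.0), above the immune-marker background. They had Col2a1 and Col11a2 in 1.56% each (1.06 to 2.22). Mutant immune-marker cells, which were shallower, had 1.0% and 0.5%. The wide intervals of these 2 values (0.121 to 3.57 and 0.0127 to 2.75) held 1.56%. In the wild-type library, 826 Tnmd-low cells (median 3758 UMIs) had Col2a1 in 6.90% (5.27 to 8.85), Col11a1 in 12.1% (9.96 to 14.5) and Col11a2 in 12.2% (10.1 to 14.7). Thinned to 1500 UMIs, the wild-type shares were 3.37%, 5.96% and 5.31%, and their intervals overlapped those of thinned immune-marker cells (2.17%, 2.17% and 3.62%). In thinned mutant cells Col11a1 was found in 12.6% (11.04 to 14.2), against 2.54% of immune-marker cells (0.527 to 7.25). At equal depth, then, Col11a1 in the mutant library was the value whose interval lay apart from that background. The Col11a1 level of Tnmd-low cells was 43.9 CPM in wild-type and 95.2 CPM in mutant cells. The Schwann or neural markers summed to 8.53 and 1579 CPM in these cells, and the pericyte or smooth muscle markers to 6054 and 1121 CPM. Without the cells that held at least 3 UMIs of either list, Col11a1 was at 48.7 CPM in 633 wild-type and 103 CPM in 1690 mutant cells.

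In other cells with Tnmd of 30 or more, 96 wild-type and 156 mutant, Col11a1 was lower in the mutant library, at 602 and 389 CPM, detected in 76.0% and 62.2%. Col2a1 (304 and 111 CPM) and Col11a2 (239 and 87.0 CPM) were lower too. Mutant levels in these cells were close to those of mutant Scx-high cells for Col11a1 (378 CPM) and Col2a1 (114 CPM).

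Because Scx-high cells were fewer in the mutant library, the library totals differed more than the levels per class. Over all cells the ratio was 0.0574 for Col2a1, 0.0419 for Col11a2 and 0.276 for Col11a1, ranks 6, 5 and 58 from the lowest of 4527 genes, of which 3.58% were at least 2-fold lower. Col2a1, with 221 UMIs in 2592 mutant cells, met the mean of 0.1 UMI in the wild-type library only. Scx-high cells held 96.0% of Col2a1, 93.2% of Col11a1 and 97.8% of Col11a2 UMIs in the wild-type library. In the mutant library they held 56.1% of Col2a1 (49.3 to 62.8), 74.1% of Col11a2 (69.1 to 78.6) and 34.5% of Col11a1 (31.8 to 37.2). Most mutant Col11a1 UMIs, 65.5%, were thus outside the Scx-high class.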

How the data were processed

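Cells were released enzymatically from pooled limb tendons of 2 P7 pups per library. The authors aligned the 10x Genomics 3′ reads to mm10 with Cell Ranger (1.2.0 in the submitters' processing notes, another version in the study's methods) and kept barcodes by total UMI count. The deposited values are whole UMI counts per gene and cell, without normalization. All barcodes were used. Scx of at least 30 UMIs per 10,000 set the Scx-high class. UMIs were summed per class and divided by its total (CPM), and ratios carry exact conditional 95% intervals, shares Clopper-Pearson intervals. For equal depth, cells were thinned without replacement to 1500 UMIs (seed 1), which left out 89 wild-type and 19 mutant Scx-high cells. Named genes are the 3 members, listed genes averaging 0.1 UMI per cell or more, and the 5 most correlated genes per member. Col9a1, Col9a2, Col9a3, Matn1, Col10a1, Snorc and Sox9 fall under this mean and were named after their values were seen, as were Hapln1, Cnmd and Ihh. Doublets called by Scrublet (scanpy 1.11.5, expected rate 2%) (26 wild-type and 8 mutant) stayed in except in an alternative. This is 1.1% of wild-type and 0.309% of mutant cells, both below the expected rate, so doublets may have been missed. How well the caller worked was not examined. The level of 1 marker gene is not reported here. The members and lists were chosen with earlier results of these data known. Ratios, top shares and thinning were tested on simulated data. Python 3.11.15, NumPy 2.4.6, SciPy 1.17.1 and pandas 2.3.3 were used.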

Additional observations from a re-analysis of the deposited data

Results flagged for a closer look

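Col11a1 had opposite directions in the 2 cell classes of the same pair of libraries, with a mutant over wild-type ratio of 0.405 in Scx-high cells and 1.46 in other cells. With 1 library per condition this difference was not tested. Neither class need hold like cells in the 2 libraries, so the ratios are not shown to be changes within like cells.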

How the results depend on the processing

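No paired analysis was possible because each condition has 1 library and no test was run, and for the same reason no replicate could be left out. The cause of the shifts below was not tested, except that thinning, a higher UMI minimum and another Scx threshold change depth or class by construction. In Scx-high cells all ratios stayed below 1 under every alternative run. Centring on the median gene gave 0.103 (Col2a1), 0.314 (Col11a1) and 0.0972 (Col11a2), and a total without the 20 most abundant genes gave 0.347 (Col11a1) and 0.107 (Col11a2). With the Scx threshold at 10, Col11a2 was 0.110 in Scx-high cells, and other cells had 0.563 (Col2a1), 2.04 (Col11a1) and 0.373 (Col11a2). With the threshold at 100, other cells had 0.174, 0.810 and 0.121, so Col11a1 turned direction. The mean over cells gave 0.256, 1.21 and 0.195 for other cells.

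Shares of wild-type Scx-high cells with a UMI, in the order Col2a1, Col11a1 and Col11a2, were 80.5%, 83.8% and 83.0% at threshold 10, 91.9%, 93.1% and 96.0% at threshold 100, 69.2%, 72.1% and 83.2% thinned, and 75.5%, 80.0% and 87.1% with at least 2 UMIs. Mutant shares were 29.2% for Col11a2 at threshold 10, 68.3% for Col11a1 at threshold 100, 16.2%, 36.6% and 25.5% thinned, and 12.3%, 40% and 25.1% with at least 2 UMIs. All 3 chains were detected in 71.6%, 85.1%, 46.1% and 62.8% of wild-type cells under these 4 settings, and in 5.56% (thinned) and 4.26% (at least 2 UMIs) of mutant cells.

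Top 10% shares in wild-type cells were 20.9%, 19.1% and 20.1% at threshold 10, 26.0%, 24.9% and 24.6% ranked by UMIs, and 30.04%, 29.9% and 29.95% thinned. In mutant cells they were 55.3% for Col11a2 at threshold 10, 40.3% (Col11a1) and 52.8% (Col11a2) ranked by UMIs, and 74.0%, 49.6% and 60.7% thinned. The other 116 values of these measures stayed within the counting interval of the main value. Among them were all with muscle-marker cells left out, and the ratios of other cells with Schwann-marker or pericyte-marker cells left out. These settings were chosen after seeing the data. Schwann-marker and pericyte-marker cells were not left out of any Scx-high value. At least 3 UMIs of the pericyte or smooth muscle markers were held by 164 wild-type and 75 mutant Scx-high cells. For detection in other cells, 37 values stayed and 27 moved. Few mutant Scx-high cells (235) and UMIs limit the precision of the mutant values.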
